A study of Homo sapiens with 3 samples.

Results

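The genes described here are 10 regulators of the integrated stress response, taken by name from the deposited count table of 60664 gene identifiers. They are the transcription factor genes ATF4, DDIT3, ATF5 and NUPR1, the feedback and growth-restraint genes TRIB3, SESN2, DDIT4 and PPP1R15A, and the kinase genes EIF2AK3 and EIF2AK4. The list follows their names and roles and uses no measured value, but it was drawn up with earlier results of these data known. Each of the 10 symbols matched an Ensembl identifier, and all 10 are protein-coding. All 10 were among the 14792 genes counted as measured, which are those that reached 1 CPM (the usual unit of counts relative to the library total, here scaled for library composition) in at least 1 library. NUPR1 reached that level in the control library alone, so a gene with its pattern had to be lower elsewhere to be listed.

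The integrated stress response begins when a kinase phosphorylates the alpha subunit of the translation initiation factor eIF2. Among these kinases, PERK (EIF2AK3) senses misfolded protein in the endoplasmic reticulum and GCN2 (EIF2AK4) senses uncharged transfer RNA when amino acids run short. General translation then slows, while mRNAs with upstream open reading frames such as ATF4, ATF5, DDIT3 and PPP1R15A are translated better, so the mRNA level of these genes is not a measure of their protein. ATF4 and the factors it works with raise genes for amino acid supply, and the feedback subunit GADD34 (PPP1R15A) brings a phosphatase to eIF2 and restores translation.

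The RNA came from Caco-2, a human colon carcinoma line that forms a polarized epithelial sheet in culture, labelled as wild type in every group. One library was untreated control. One was made from cells exposed to 3% dextran sulfate sodium (DSS), a sulfated polysaccharide that injures the colonic epithelium of rodents, for 8 h. One came from cells that received 30 µM polydatin, a glucoside of resveratrol, for 2 h and then polydatin together with 3% DSS for 8 h. Polydatin without DSS and arms with erastin or Fer-1 were not analysed here, so each polydatin value is a value under DSS. The series title places the question in ferroptosis and the NRF2 pathway.

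Each group had 1 library, so no difference below has a replicate check, no p-value is given, and each ratio compares libraries and not conditions. Totals ran from 16667622 to 18825914 counts, and 1 CPM stood for 17.4 to 18.5 counts. Mitochondrially encoded RNA made up 4.34% to 5.31% of counts. Of 12 markers of intestinal epithelium, 11 reached 1 CPM in every library, with a summed level of 7922 to 9698 CPM. Of 12 markers of blood, vessel and connective tissue cells, 3 to 5 had no count, PTPRC among them in every library, and their summed level was 65.5 to 75.1 CPM. Single markers moved within these sums. The brush-border enzyme gene SI stood at 47.0, 9.28 and 8.54 CPM and the intestinal factor gene CDX2 at 147, 118 and 78.3 CPM. Of the 11 epithelial markers measured, 8 were above control in DSS and 3 below. The non-epithelial markers PECAM1 and PDGFRB stood at 24.4, 16.0 and 9.52 CPM and at 7.60, 3.99 and 5.33 CPM. LYZ and VWF, named after their values were seen, went the other way from below 1 CPM in control. They stood at 0.771, 4.48 and 2.24 CPM and at 0.496, 1.19 and 3.90 CPM. Of the 6 non-epithelial markers measured, 2 were above control in DSS and 4 below. Their part in the results below was not tested. In RNA from whole cultures, fewer cells that express a gene and less RNA per cell cannot be told apart. Values in parentheses after a CPM or a ratio are exact 95% intervals, and they cover counting error only. Values given in sets of 3 follow the order control, DSS, DSS with polydatin. A gene is called higher or lower in a comparison when its ratio of scaled counts is at least 1.5-fold from 1 and the interval leaves out 1.

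The 10 regulators did not move as a block. The plot of CPM by library shows 4 orders of the libraries. SESN2, DDIT4 and NUPR1 were highest in control and lowest in DSS. ATF4, DDIT3 and ATF5 were also lowest in DSS, but highest in DSS with polydatin. TRIB3, PPP1R15A and EIF2AK3 went up from control to DSS to DSS with polydatin, and EIF2AK4 went down along the same order. For ATF5 the counting intervals of the 3 libraries overlapped, so its order is not resolved at this depth. The intervals also overlapped for control and DSS with polydatin in ATF4, for control and each DSS library in DDIT3, and for the DSS libraries in NUPR1.

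**Figure D1:**
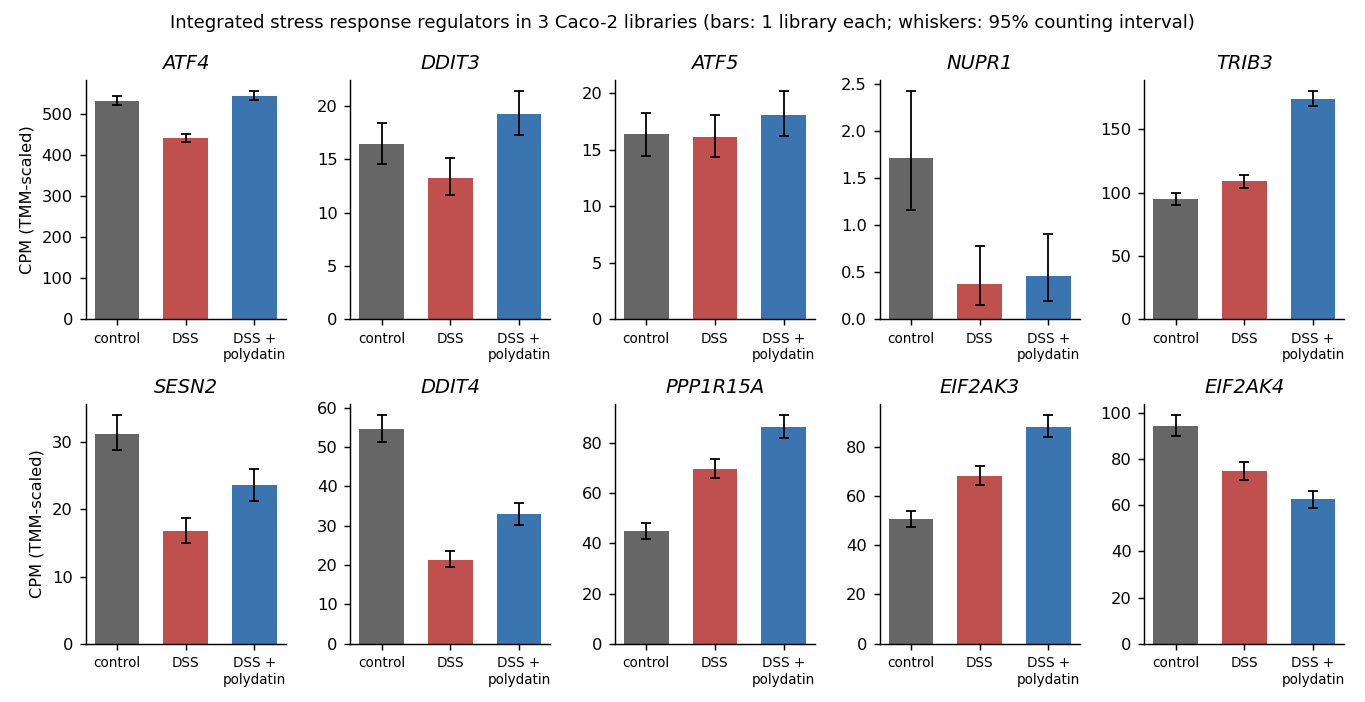
Bars give the level of each regulator in CPM (vertical axes, each starting at 0 with its own range) in the control, DSS and DSS with polydatin libraries, 1 library per bar, with 95% counting intervals as whiskers. DDIT4 stood at 54.5, 21.4 and 32.9 CPM and TRIB3 at 94.9, 109 and 174 CPM.

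Levels of different genes were compared per kilobase of merged exon length. ATF4 was by far the most abundant of the 10, at 212 (207 to 216), 176 (172 to 179) and 216 (212 to 221) CPM per kilobase. TRIB3 came next in all 3 libraries, at 27.6, 31.8 and 50.6 CPM per kilobase. In control the third was DDIT4 at 26.5 (24.9 to 28.2), whose interval overlapped that of TRIB3. In both DSS libraries PPP1R15A held the third place, at 22.5 and 28.0 CPM per kilobase, and DDIT4 was the fifth at 10.4 and 16.0. DDIT4 and DDIT3 were not separated by their intervals in either DSS library. ATF5 had 5.46 to 6.13 CPM per kilobase. It overlapped EIF2AK4 and SESN2 in both DSS libraries, and lay below both genes in control. NUPR1 was the least abundant, at 0.0666 to 0.301.

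DSS against control compares the library from cells exposed to the sulfated polysaccharide with the library from untreated cells. DDIT4, SESN2 and NUPR1 were called lower and PPP1R15A was called higher. That is 3 of 10 lower, where 5.81% of all measured genes were called lower. It is also 1 of 10 higher, where 9.45% of all measured genes were called higher. NUPR1 was listed only through its control level, so its direction was fixed and it adds no support to the count. At 10 CPM or more, 2 regulators were called lower, where 4.34% of measured genes were called lower. Of the other 6 regulators, TRIB3 and EIF2AK3 had intervals above 1, ATF4, DDIT3 and EIF2AK4 had intervals below 1, and ATF5 had an interval that held 1. The median log2 ratio of the 10 was -0.28, against -0.01 over all measured genes. For scale, the middle 80% of measured genes, from the 10th to the 90th percentile, spanned log2 ratios of -0.50 to 0.65.

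Among the transcription factors, ATF4 (chromosome 22, 39519695 to 39522685, GRCh38) encodes the central activator of the response. It had 9657, 8176 and 9478 counts, which is 532, 441 and 544 CPM. The DSS library was the low one, at 0.830 times control (0.806 to 0.855), and 22.6% of measured genes had a lower ratio. Reads can be shared with the processed pseudogenes of ATF4, and the 4 listed in the table held at most 13 counts each. How reads with several matches were counted is not given, so these values cannot show how many reads were shared or dropped.

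DDIT3 (chromosome 12, 57516588 to 57521737) encodes CHOP, a partner of C/EBP factors that turns on under prolonged stress. It had 298, 247 and 336 counts, or 16.4, 13.3 and 19.3 CPM. DSS was again the low library, at 0.812 times control (0.683 to 0.965), short of the 1.5-fold rule. DDIT3 shares 355 exon bases with MARS1 on the opposite strand, and the strand setting of the counts is not given in the sources used here. MARS1, a transfer RNA synthetase gene named for this overlap, stood at 247, 151 and 159 CPM, so it was also higher in control than in DSS, and its part in the DDIT3 counts was not tested.

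ATF5 (chromosome 19, 49928702 to 49933935), a relative of ATF4 tied to stress in mitochondria, had 297, 299 and 316 counts, or 16.4, 16.1 and 18.1 CPM. No pair of libraries was separated, and the DSS to control ratio was 0.987 (0.838 to 1.16). ATF5 shares 626 exon bases with NUP62 on the opposite strand. NUP62, named for this overlap, had 1323, 1117 and 1000 counts, and its part in the ATF5 counts was not tested. NUPR1 (chromosome 16, 28532708 to 28539174), a small stress-induced chromatin protein gene, had 31, 7 and 8 counts, or 1.71, 0.378 and 0.459 CPM. Its DSS level was 0.221 times control (0.0823 to 0.512), the lowest ratio of the 10 and the one with the widest interval.

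The largest differences with dense counts lay in a pair of genes that restrain the growth kinase TORC1. DDIT4 (chromosome 10, 72273920 to 72276036) encodes REDD1, which acts on TORC1 through the TSC complex. It had 990, 397 and 573 counts, or 54.5, 21.4 and 32.9 CPM. All 3 intervals were apart, and DSS stood at 0.393 times control (0.349 to 0.442), with only 0.865% of measured genes at a lower ratio. SESN2 (chromosome 1, 28259527 to 28282491) encodes sestrin 2, a leucine sensor. It had 569, 312 and 411 counts, or 31.3, 16.8 and 23.6 CPM, and DSS stood at 0.537 times control (0.467 to 0.618). Both genes were called lower under every alternative scaling and filter tried, with log2 ratios of -1.61 to -1.30 for DDIT4 and -1.16 to -0.88 for SESN2, but SESN2 did not pass a 2-fold rule. The annotation places an antisense gene over 847 exon bases of DDIT4, and the identifier of that gene had no match among the deposited counts.

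DDIT4 is also known as a gene that hypoxia raises, and SESN2 as a p53 target, so the other genes of those programmes are given beside them. In this comparison 9.45% of all measured genes were called higher and 5.81% lower, and 4.24% were called higher by a 2-fold rule. Of 12 measured hypoxia targets, 10 were called higher in DSS than in control and none lower, with a median log2 ratio of 0.71. By a 2-fold rule 2 of the 12 were called higher. These were BNIP3 and NDRG1. BNIP3, a mitophagy receptor gene, was at 2.25 times control (2.04 to 2.49) and NDRG1, a stress-responsive gene, at 2.15 times (2.03 to 2.27). Of 12 measured p53 targets, 5 were called higher and none lower, with a median log2 ratio of 0.30, and 2 passed a 2-fold rule. They were led by the cell cycle inhibitor gene CDKN1A at 4.73 times control (3.61 to 6.30) and the kinase gene PLK3 at 2.20 times (1.58 to 3.10). DDIT4 and SESN2 therefore lay on the other side of 1 from most genes of these lists. The sestrin relatives SESN1 and SESN3 were at 0.714 (0.653 to 0.779) and 0.933 times control (0.814 to 1.07), and neither was called.

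The stretch before the DDIT4 start is shown because the gene went against the hypoxia genes listed with it. It reaches from 250 bases before the RefSeq start to the base before the first annotated start (GRCh38.p14, chr10:72273674-72273919, plus strand). Capitals mark ACGTG, the core of the hypoxia response element, which was added to the search after the values were seen.
DDIT4: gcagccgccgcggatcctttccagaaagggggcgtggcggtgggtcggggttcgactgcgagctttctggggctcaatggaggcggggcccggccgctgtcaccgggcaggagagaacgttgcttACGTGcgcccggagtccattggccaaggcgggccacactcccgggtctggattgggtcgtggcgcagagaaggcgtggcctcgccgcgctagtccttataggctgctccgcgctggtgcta
The match lies 125 to 121 bases before the RefSeq start. The core was found on either strand in 3 of the 9 regulators with a promoter window, DDIT4, ATF4 and EIF2AK3, and in 24.9% of the 27305 genes with a window in the RefSeq table.

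PPP1R15A (chromosome 19, 48872392 to 48876057) was the regulator called higher in DSS. It had 815, 1292 and 1508 counts, or 44.9, 69.7 and 86.5 CPM, with all 3 intervals apart. DSS stood at 1.55 times control (1.42 to 1.70), barely past the rule, and 89.7% of measured genes had a lower ratio. After all ratios were adjusted for GC content and length by a fitted trend, the value was 1.38 (1.26 to 1.51) and no longer called. TRIB3 (chromosome 20, 362835 to 397559) encodes a pseudokinase that binds ATF4 and AKT and is a late target of the response. It had 1724 counts in control and 2021 in DSS, or 94.9 and 109 CPM. Its ratio of 1.15 (1.08 to 1.23) became 0.976 (0.915 to 1.04) after this adjustment, so its direction in DSS depends on that setting.

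The promoter stretch of PPP1R15A is shown because it was the regulator called higher in DSS and held the most matches to the 4 stress elements first searched for (GRCh38.p14, chr19:48872171-48872391, plus strand). Capitals mark, from left to right, a match on the minus strand and a match on the plus strand to TGACNNNGC, the antioxidant response element, and a match to TGACGTCA, the cAMP response element.
PPP1R15A: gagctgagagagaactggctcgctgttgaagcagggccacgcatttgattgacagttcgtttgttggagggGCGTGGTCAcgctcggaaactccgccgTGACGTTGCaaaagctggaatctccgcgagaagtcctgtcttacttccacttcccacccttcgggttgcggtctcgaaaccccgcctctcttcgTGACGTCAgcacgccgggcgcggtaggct
The cAMP response element lies 58 to 51 bases before the RefSeq start and does not overlap the others. Both strands of the windows from 250 bases before to 50 bases after each RefSeq start were searched, and 9 of the 10 regulators had a window, some of them more than 1. Shares are of genes with a match in any window. TGACGTCA was in 1 of the 9, PPP1R15A, and in 2.25% of all genes. TGACNNNGC was in 2 of the 9, PPP1R15A and TRIB3, and in 16.1% of all genes. TGATGNAA, the C/EBP-ATF response element to which ATF4 binds, was in none of the 9 and in 4.46% of all genes. The endoplasmic reticulum stress element, CCAAT and CCACG held apart by a spacer of 9 bases, was in none of the 9 and in 0.0916% of all genes. A match says only that these letters are present, and nothing is drawn from their absence.

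The kinase genes went in opposite directions. EIF2AK3 (chromosome 2, 88556741 to 88627576) had 920, 1262 and 1537 counts, or 50.7, 68.1 and 88.1 CPM. It overlaps antisense genes with at most 70 counts. EIF2AK4 (chromosome 15, 39934146 to 40035591) had 1713, 1385 and 1090 counts, or 94.3, 74.8 and 62.5 CPM. In each gene the 3 intervals were apart, with control at one end and DSS with polydatin at the other. The DSS to control ratios, 1.34 for EIF2AK3 (1.23 to 1.47) and 0.792 for EIF2AK4 (0.738 to 0.851), were both short of 1.5-fold. The remaining kinase genes of the family stayed closer to 1, with EIF2AK1, the heme-regulated kinase, at 0.946 times control (0.905 to 0.989) and EIF2AK2, which senses double-stranded RNA, at 0.900 times (0.854 to 0.950).

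**Figure D2:**
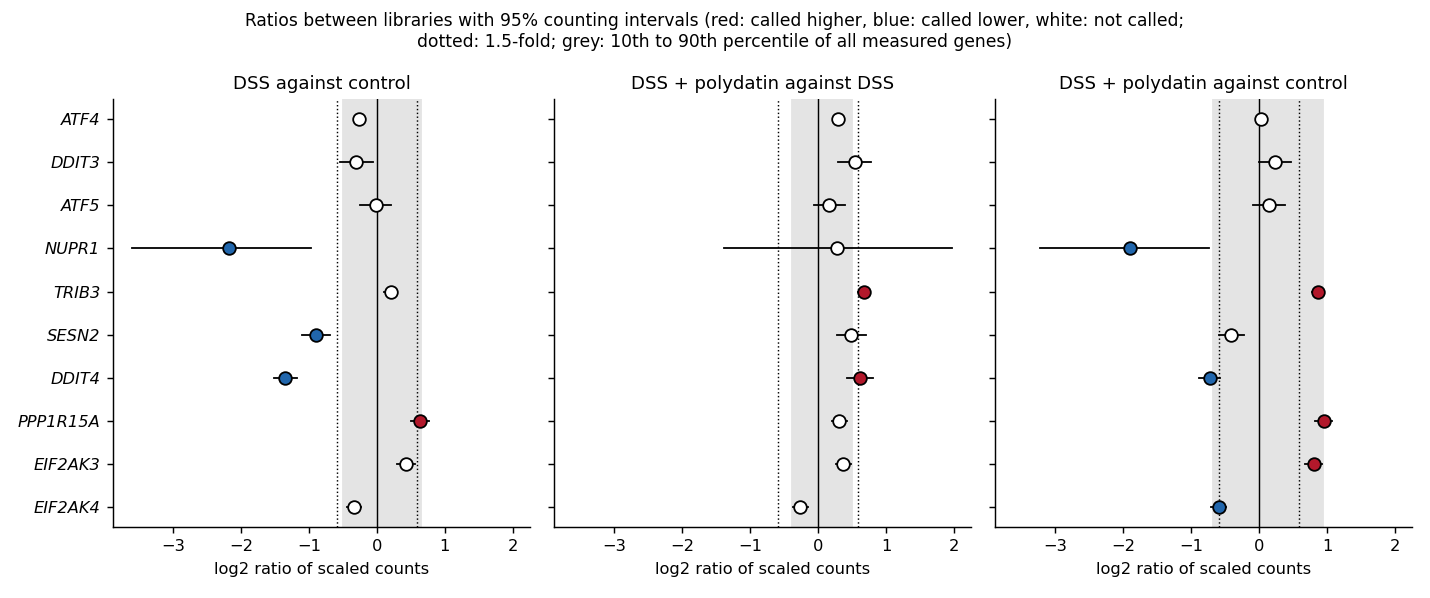
Log2 ratios of scaled counts (horizontal axis) of the 10 regulators in the 3 comparisons, with 95% counting intervals as bars. Grey bands span the 10th to 90th percentile of all measured genes, dotted lines stand at 1.5-fold, and red or blue points are called higher or lower. DDIT4, SESN2 and NUPR1 lie left of the band in DSS against control, and 9 of 10 points lie right of 0 in DSS with polydatin against DSS.

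The next comparison sets DSS with polydatin against DSS alone, and so asks what adding polydatin went with. TRIB3 and DDIT4 were called higher, and no regulator was called lower. That is 2 of 10 higher, where 5.39% of measured genes were called higher, and 0 of 10 lower, where 2.60% were called lower. Ratios were above 1 for 9 of the 10, with intervals above 1 for 7, and EIF2AK4 was the exception with an interval below 1. The intervals of ATF5 and NUPR1 held 1. The median log2 ratio of the 10 was 0.34 against -0.01 over all measured genes, and the middle 80% of measured genes spanned -0.39 to 0.50. The split of all calls depended on scaling, being 7.61% higher and 1.57% lower with total-count scaling and 8.24% higher and 1.38% lower with housekeeping-gene scaling.

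TRIB3 stood at 174 CPM against 109, which is 1.59 times DSS, with an interval that reached up to 1.69 and left out 1, and 94.1% of measured genes had a lower ratio. DDIT4 was at 1.53 times DSS (1.35 to 1.75). After adjustment for GC content and length neither stayed past 1.5-fold, TRIB3 being at 1.43 (1.35 to 1.51) and DDIT4 at 1.36 (1.20 to 1.55). DDIT3 was at 1.45 times DSS (1.22 to 1.71) and SESN2 at 1.40 times (1.21 to 1.63), both just under the rule. Housekeeping-gene scaling placed both past the rule, and total-count scaling placed DDIT3 past it. TRIB3 and DDIT4 are thus the regulators just inside the rule, and DDIT3 and SESN2 those just outside.

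ATF4 itself was at 1.23 times DSS (1.20 to 1.27), PPP1R15A at 1.24 times (1.15 to 1.34) and EIF2AK3 at 1.29 times (1.20 to 1.40). Each of these had dense counts and a narrow interval, and none reached 1.5-fold. EIF2AK4 was at 0.836 times DSS (0.772 to 0.906). NUPR1, with 7 and 8 counts, had a ratio of 1.21 with an interval from 0.385 to 3.93, so a difference of either direction was not detectable at this depth.

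**Figure D3:**
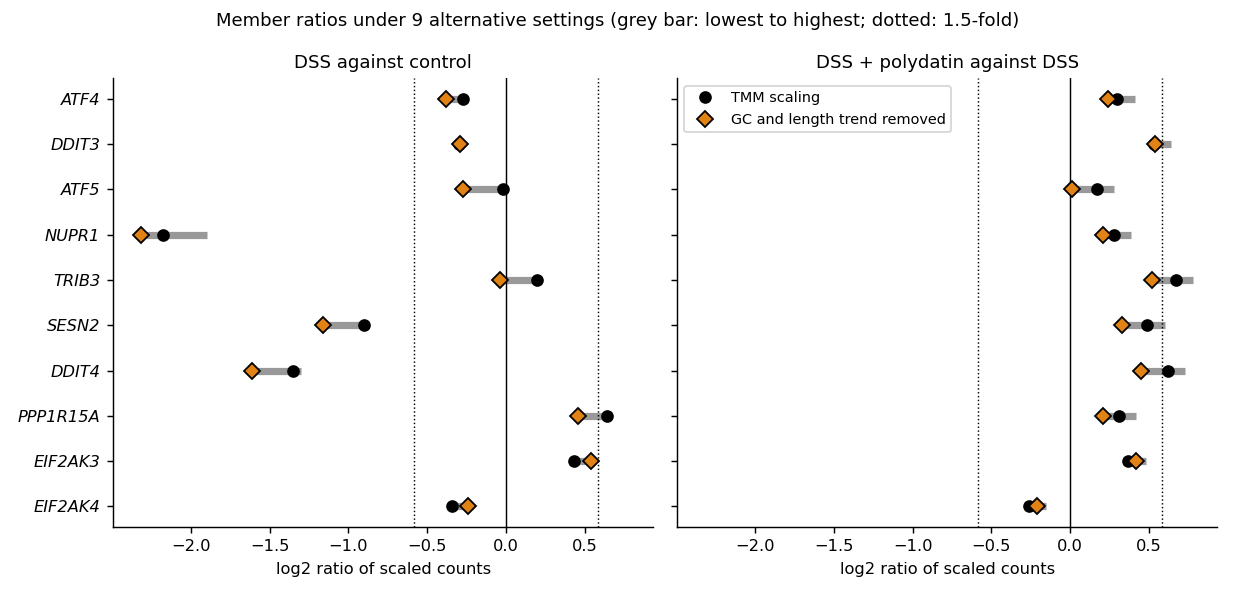
Log2 ratios (horizontal axis) of the 10 regulators under the main scaling (black), after adjustment for GC content and length (orange), and over all 9 alternatives (grey bars from lowest to highest). In DSS with polydatin against DSS the points of TRIB3 and DDIT4 lie on different sides of the dotted 1.5-fold line under the 2 marked settings.

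The comparison of DSS with polydatin against control shows where each regulator ended. It shares its libraries with the other comparisons and adds no independent support to them. TRIB3, PPP1R15A and EIF2AK3 were called higher, 3 of 10 where 16.0% of measured genes were called higher. DDIT4, NUPR1 and EIF2AK4 were called lower, 3 of 10 where 12.4% of measured genes were called lower. With total-count scaling those shares of measured genes were 19.9% and 8.33%. NUPR1 was again listed only through its control level, so its direction was fixed. At 10 CPM or more, 2 regulators were called lower, where 13.0% of measured genes were called lower.

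ATF4 was level with control at 1.02 times (0.993 to 1.05). DDIT3 was at 1.17 times control (1.00 to 1.38) and ATF5 at 1.11 times (0.943 to 1.30). DDIT4 was at 0.603 times control (0.543 to 0.669) and SESN2 at 0.752 times (0.661 to 0.855), between the control and DSS libraries in both genes. TRIB3 was at 1.83 times control (1.72 to 1.94), PPP1R15A at 1.93 times (1.77 to 2.10) and EIF2AK3 at 1.74 times (1.60 to 1.89). EIF2AK4 was at 0.663 times control (0.614 to 0.715) and NUPR1 at 0.269 times (0.107 to 0.598). After adjustment for GC content and length TRIB3 was at 1.39 times control (1.31 to 1.47) and EIF2AK4 at 0.730 times (0.676 to 0.788), both no longer called, and SESN2 at 0.562 times (0.494 to 0.639) was called lower.

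Genes downstream of ATF4 were counted from lists drawn up by role. In DSS against control 9.45% of all measured genes were called higher and 5.81% lower. Of 23 measured ATF4 targets for amino acid supply, 14 were called lower and 2 higher in DSS than in control, with a median log2 ratio of -0.79. Of 13 cytosolic transfer RNA synthetase genes and the transfer RNA exporter gene XPOT, 11 of 14 were called lower and none higher, with a median of -0.70. Both medians lay below that of the 10 regulators. ASNS, asparagine synthetase, had 61, 20 and 41 counts. PSAT1, of serine synthesis, stood at 225, 64.6 and 77.9 CPM. The synthetase genes YARS1 and GARS1 were at 0.453 (0.430 to 0.477) and 0.526 times control (0.504 to 0.548). ALDH18A1, of proline synthesis, and the glutamine transporter gene SLC38A2 were the 2 called higher, at 1.96 (1.88 to 2.03) and 1.84 times control (1.80 to 1.88). With a 2-fold rule 1 synthetase gene was called lower, where 1.76% of measured genes were called lower.

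With polydatin the 2 lists parted. In DSS with polydatin against DSS 5.39% of all measured genes were called higher and 2.60% lower. By a 2-fold rule 1.94% were called higher. Of the amino acid supply genes 7 were called higher than in DSS and 1 lower, with a median log2 ratio of 0.21, and 3 were called higher by a 2-fold rule. Of the synthetase list none was called higher and 1 lower, VARS1 at 0.636 times DSS (0.587 to 0.689), with a median of -0.01. ALDH1L2, a mitochondrial folate enzyme gene, stood at 19.9, 5.29 and 15.6 CPM. SLC1A4, a neutral amino acid transporter gene, had the same order at 38.8, 14.4 and 31.2 CPM. PSAT1 was at 1.21 times DSS (1.12 to 1.31) and YARS1 at 0.950 times (0.892 to 1.01), and neither was called.

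The signalling and stress targets of ATF4 and CHOP were mixed in DSS. Of 20 measured, 6 were called higher and 4 lower, with a median log2 ratio of 0.15. The shares of all measured genes were 9.45% higher and 5.81% lower. INHBE, an activin subunit gene, had 129, 14 and 65 counts. CHAC1, which breaks down glutathione, had 205, 52 and 156 counts. Against these, GDF15, a stress hormone gene, had 163, 1047 and 1938 counts and CDKN1A had 64, 309 and 690. With polydatin the shares of all measured genes were 5.39% higher and 2.60% lower than in DSS. Of the 20 targets, 9 were called higher and none lower, with a median of 0.39. BBC3, a death-promoting BCL2 relative, was among them at 2.21 times DSS (1.55 to 3.19).

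ATF3 and JUN led the bZIP factors, the class of ATF4 and its dimer partners. ATF3 stood at 14.4, 30.7 and 63.7 CPM, and JUN at 15.0, 42.6 and 66.5 CPM. Both were called higher in each comparison, unlike ATF4, DDIT3 and ATF5. JDP2, a repressor that binds the same kind of site, was at 0.464 times control in DSS (0.402 to 0.535). CEBPB, a partner of ATF4 and CHOP, was at 0.729 times control in DSS (0.646 to 0.822) and 1.51 times DSS with polydatin (1.34 to 1.70), the same order as DDIT3. CEBPG, another partner, was at 0.851 (0.810 to 0.894) and 1.06 times (1.01 to 1.12). Of the 14 factors measured, 2 were called higher and 1 lower in DSS, and 3 higher and none lower with polydatin. The shares of all measured genes were 9.45% and 5.81% in DSS, and 5.39% and 2.60% with polydatin. The DSS counts were thus near those of all genes. After adjustment for GC content and length, 1 of the 14 was called higher with polydatin, where 4.36% of measured genes were. Some genes are on more than 1 list. ATF3, CEBPB and CEBPG are also on the list of signalling and stress targets. CDKN1A and BBC3 are on that list and the p53 list. VEGFA and ERO1A, named for this overlap, are on that list and the hypoxia list, and VEGFA was called higher in DSS. SESN1 is on the p53 and TORC1 lists. XBP1 and ATF6 are on the bZIP and endoplasmic reticulum lists, and DNAJC3 is on the eIF2 core and endoplasmic reticulum lists.

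**Figure D4:**
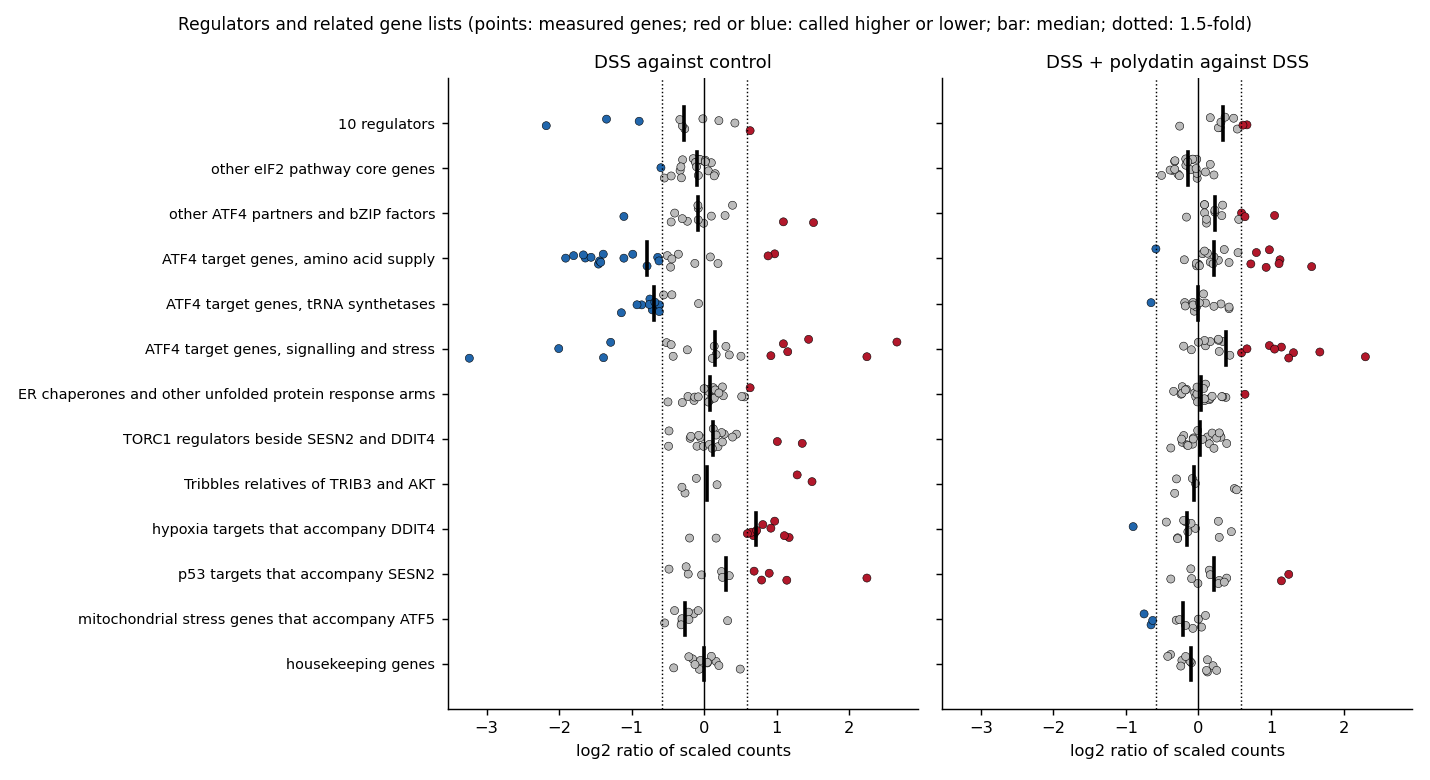
Each point is a measured gene at its log2 ratio (horizontal axis), in rows for the 10 regulators and for related lists, with DSS against control on the left and DSS with polydatin against DSS on the right. Red or blue points are called higher or lower, black bars are medians, and dotted lines stand at 1.5-fold. In DSS the amino acid supply and synthetase lists lie left of 0 with medians of -0.79 and -0.70, and the hypoxia list lies right with a median of 0.71.

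Genes of the eIF2 pathway core outside the 10 regulators were mostly somewhat lower along the order control, DSS, DSS with polydatin. Of 21 measured, 1 was called lower in DSS than in control, the eIF2 beta subunit gene EIF2S2 at 0.661 times (0.645 to 0.677), and none was called with polydatin against DSS. The shares of all measured genes called lower were 5.81% and 2.60%. The median log2 ratios of the list were -0.11 and -0.15. Over the alternatives these medians ran from -0.13 to -0.03 and from -0.16 to -0.04, so their size depended on the setting. Housekeeping genes had medians of -0.01 and -0.11. In DSS with polydatin against control 5 of the 21 were called lower and none higher, with a median of -0.29, where 12.4% of measured genes were called lower. These were EIF2S2, EIF2S1 and, named after their values were seen, EIF2B1, EIF2B3 and IMPACT, of which EIF2B3, a subunit gene of the exchange factor eIF2B, had the lowest ratio at 0.480 (0.413 to 0.557). By a 2-fold rule 1 of them was called. EIF2S1, which encodes the phosphorylated subunit, was at 0.794 times control in DSS (0.749 to 0.842) and 0.797 times DSS with polydatin (0.746 to 0.851). PPP1R15B, the constitutive relative of PPP1R15A, was at 1.07 (1.01 to 1.13) and 1.16 times (1.10 to 1.23).

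Among genes of the other endoplasmic reticulum stress branches the called shares were below or near those of all measured genes. Of 22 measured, 1 was called higher in DSS, the ubiquitin ligase gene SYVN1 at 1.55 times control (1.36 to 1.78), and 1 with polydatin, the stress sensor gene ERN1 at 1.56 times DSS (1.36 to 1.79). The medians were 0.08 and 0.03, and the shares of all measured genes called higher were 9.45% and 5.39%. In DSS with polydatin against control 4 of the 22 were called higher and none lower, with a median of 0.07, where 16.0% of measured genes were called higher. These were SYVN1 at 1.96 times control (1.72 to 2.23), DNAJB9 at 1.92 times (1.71 to 2.15), ERN1 at 1.56 times (1.36 to 1.79) and SDF2L1, named after its value was seen. The chaperone gene HSPA5 (BiP) was at 1.06 times control (1.03 to 1.08) and 1.06 times DSS (1.04 to 1.08), and the co-chaperone gene DNAJB9 at 1.47 (1.31 to 1.66) and 1.30 times (1.18 to 1.44). XBP1, the factor downstream of ERN1, was at 0.811 (0.768 to 0.857) and 1.25 times (1.19 to 1.32). Gene counts do not show XBP1 splicing.

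Partners and relatives of the feedback genes were counted next. Of 20 measured TORC1 regulators beside SESN2 and DDIT4, 2 were called higher in DSS and none lower, where 9.45% of measured genes were called higher. They were RRAGD, a Rag GTPase gene, at 2.01 times control (1.36 to 3.01) and DEPTOR, named after its value was seen, at 2.55 times (1.37 to 4.98). DEPTOR, at 0.826, 2.11 and 2.01 CPM, was listed only through the DSS libraries, so its direction was fixed. None of the 20 was called with polydatin against DSS. Of the 6 Tribbles relatives of TRIB3 and AKT genes, 2 were called higher in DSS and none lower, where 9.45% of measured genes were called higher. None of the 6 was called with polydatin against DSS. TRIB1, at 2.43 times control (2.16 to 2.75), stood at 21.2, 51.6 and 72.8 CPM, the same order as TRIB3. TRIB2, at 2.80 times control (1.14 to 7.84), had 7, 20 and 15 counts. It reached 1 CPM in the DSS library alone, so a gene with its pattern had to be higher there to be listed. Of 10 genes for protein folding and turnover in mitochondria, set beside ATF5, none was called in DSS and 3 were called lower with polydatin, where 2.60% of measured genes were called lower. With total-count or housekeeping-gene scaling 1 of the 10 was called lower. Among the 3 were the chaperonin genes HSPE1 and HSPD1 at 0.595 (0.530 to 0.667) and 0.636 times DSS (0.624 to 0.647). Of the 12 measured hypoxia targets, 1 was called lower with polydatin against DSS and none higher, with a median log2 ratio of -0.16. That gene was SLC2A1, a glucose transporter gene, at 0.536 times DSS (0.524 to 0.548). DDIT4 was called higher in the same comparison, but not after adjustment for GC content and length.

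Genes whose 3 values had a pattern most like ATF4, DDIT3 and TRIB3 were searched among 9716 genes with a mean of at least 10 CPM. The measure was the Euclidean distance between log2 values, each gene centred over the 3 libraries. Nearest to ATF4 were AGO3, CARD8 and ARHGEF17, the last at 71.3, 59.4 and 72.3 CPM, and 132 genes lay within a distance of 0.1. Nearest to DDIT3 were CREG2, the gene ENSG00000264112, which had no symbol, and LINC00910, the last at 16.6, 13.2 and 19.1 CPM, with 20 genes within 0.1. Among the nearest to TRIB3 were KDELR3 and DENND3, with 24 genes within 0.1, and KDELR3, a retrieval receptor gene for endoplasmic reticulum proteins, stood at 31.9, 37.3 and 58.7 CPM. With 3 libraries many genes share a pattern, and likeness of this kind describes these libraries only.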

How the data were processed

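Per the submitters' processing notes, the authors aligned reads with HISAT2 to GRCh38. The authors deposited unnormalized whole read counts for Ensembl gene identifiers. Which counting program, annotation release and strand setting they used is not given in the sources used here. Members and gene lists were chosen with earlier results of these data known. Symbols matched 60463 of 60664 identifiers. Gene positions, exon lengths and GC content came from GENCODE release 29 (58396 identifiers), promoter windows from RefSeq on GRCh38.p14.

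Library totals were multiplied by trimmed-mean-of-M (TMM) factors (0.971 for control, 0.984 for DSS, 1.05 for DSS with polydatin) from edgeR 4.0.16 in R 4.3.3. Ratios carry exact 95% Clopper-Pearson intervals on the counts of both libraries (scipy 1.17.1, Python 3.11.15), and CPM values exact Poisson intervals. Where a library had 0 counts, 0.5 was added to both. The reads carry no molecular identifiers, so they need not be independent molecules. With 1 library per group no count model was fitted. The ratio script was tested on simulated data.

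Named genes were the 10 regulators, 16 fixed relatives, and of each list up to 4 called in a main comparison at 5 CPM or more (the 2 highest and 2 lowest). The 9 alternatives were scaling by totals, by housekeeping genes or by DESeq2 1.42.0 size factors, no filter, a filter at 10 CPM, a 2-fold rule, 2 added counts, equal depth by thinning, and adjustment for GC content and transcript length with a robust spline fit (statsmodels 0.14.6). The motif ACGTG was added after the values were seen. Figures used matplotlib 3.10.9.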

Additional observations from a re-analysis of the deposited data

How the results depend on the processing

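No paired analysis was possible because each group had 1 library. No log2 ratio of a regulator called in the report changed sign under the 9 alternatives. The filters and the 2-fold rule cannot move a ratio. Under the other 6 alternatives 154 of 180 ratios of the regulators stayed inside their counting interval and 26 did not. Among ratios not called, those of TRIB3 in DSS against control (-0.04), and of ATF4 (-0.15) and ATF5 (-0.26) in DSS with polydatin against control, took the other sign after adjustment for GC content and length. That adjustment left 0 regulators called higher in DSS against control and 0 in DSS with polydatin against DSS. Housekeeping-gene scaling, which moved the median log2 ratio of all measured genes in DSS with polydatin against DSS from -0.01 to 0.10, called 4 regulators higher there. It called 8.24% of measured genes higher and 1.38% lower, and total-count scaling called 1.57% lower. Total-count scaling moved the median in DSS with polydatin against control from -0.02 to 0.09. The 2-fold rule left 0 regulators called higher in each comparison, and 1, NUPR1, called lower in DSS with polydatin against control. By that rule 4.24% of measured genes were called higher and 1.76% lower in DSS against control, 1.94% and 0.460% in DSS with polydatin against DSS, and 8.53% and 3.27% in DSS with polydatin against control. Without a filter on low counts the same shares were 5.41% and 3.31%, 3.16% and 1.51%, and 9.22% and 6.68%, because more genes were counted as measured. At 10 CPM or more 2.35% were called higher in DSS with polydatin against DSS. By the 2-fold rule 2 in place of 10 hypoxia targets, 2 in place of 5 p53 targets and 1 in place of 11 genes of the synthetase list were called in DSS against control, and 3 in place of 7 amino acid supply genes were called higher in DSS with polydatin against DSS. The eIF2B, eIF2 and other core genes called lower in DSS with polydatin against control numbered 1 in place of 5. NUPR1 has no value at 10 CPM or more. Its 7 and 8 counts in the DSS libraries, and 1 library per group, limit precision.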
